A study of Mus musculus with 12 samples.

Results

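The SV2 genes Sv2a, Sv2b and Sv2c were described in nuclei of the newborn mouse forebrain. They were chosen by gene symbol and are 3 of the 55335 genes listed in the count matrices. Sv2c was included because its level in excitatory neurons differed between the genotypes in these same libraries, so its values in excitatory nuclei are given as a description with no test. Single-nucleus RNA sequencing (snRNAseq) was done on forebrain from mice at postnatal day 1 (P1), with 8 wild type (WT) and 4 heterozygous (Het) animals, 1 library per animal. Both groups came from the line C57BL/6-Myt1l em1Jdd/J, labelled MYT1L S710fsX, in which a frameshift was introduced into Myt1l, the gene of a neuronal zinc finger transcription factor. WT animals carried no mutant allele and Het animals carried 1. WT 1 to WT 5 and Het 1 to Het 3 were male, and WT 6 to WT 8 and Het 4 were female. The animals were drawn from 4 litters that the labels do not assign to libraries, so that litter and genotype cannot be told apart here. All libraries were made on a single plate. The labels give the region as forebrain, whereas one passage of the study's methods speaks of prefrontal cortex.

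SV2 proteins are glycoproteins of the synaptic vesicle membrane that resemble sugar transporters in their fold. They bind synaptotagmin, the calcium sensor of vesicle fusion, and support regulated transmitter release, and botulinum neurotoxin A uses them to enter nerve terminals. SV2A is found at most synapses and is the target of the antiepileptic drug levetiracetam, SV2B is best known from glutamatergic neurons of the forebrain, and SV2C is best known from the basal ganglia.

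The 3 genes lie on different chromosomes of the mm10 build. Sv2a (ENSMUSG00000038486.9) spans 14.4 kb of chromosome 3 (96181151 to 96195521, plus strand), and no other gene of the GENCODE annotation overlaps it. Sv2b (ENSMUSG00000053025.13) spans 194 kb of chromosome 7 (75114894 to 75309262, minus strand). Sv2c (ENSMUSG00000051111.16) spans 178 kb of chromosome 13 (95954594 to 96132577, minus strand). The longest transcript of each has 13 exons. A gene of the same strand, Gm20075, lies inside Sv2c and drew 792.5 UMIs against 9486 for Sv2c over all nuclei kept. A UMI (unique molecular identifier) marks 1 captured transcript. Reads that match several genes were divided among them in the deposited matrices, so part of the Sv2c signal could be assigned to Gm20075 and the reverse. In excitatory nuclei Gm20075 stood at 3.23 ± 0.782 CPM (UMIs per 1000000 UMIs of the nuclei summed; SD, n = 8) in WT and 3.95 ± 0.813 CPM (n = 4) in Het.

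The 250 bases before the RefSeq start of each gene are shown because the genes differ in where they are used, and these stretches differ in base composition. The sequences are from RefSeq on GRCm38.p6, written 5′ to 3′ on the strand of the gene, and capitals mark each CG dinucleotide. For Sv2b, which has 4 annotated starts, the outermost is shown. They lie at chr3:96180977-96181226 (plus strand) for Sv2a, chr7:75309263-75309512 (minus strand) for Sv2b and chr13:96132578-96132827 (minus strand) for Sv2c.
Sv2a: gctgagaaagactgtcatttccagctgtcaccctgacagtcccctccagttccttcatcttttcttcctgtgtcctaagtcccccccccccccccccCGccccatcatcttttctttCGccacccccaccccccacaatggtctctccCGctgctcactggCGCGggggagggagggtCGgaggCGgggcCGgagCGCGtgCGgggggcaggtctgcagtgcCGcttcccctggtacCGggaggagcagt
Sv2b: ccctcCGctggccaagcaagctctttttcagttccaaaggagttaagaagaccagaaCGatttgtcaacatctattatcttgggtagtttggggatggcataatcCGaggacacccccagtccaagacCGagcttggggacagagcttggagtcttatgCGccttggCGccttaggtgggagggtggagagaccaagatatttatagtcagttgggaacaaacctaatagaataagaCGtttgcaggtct
Sv2c: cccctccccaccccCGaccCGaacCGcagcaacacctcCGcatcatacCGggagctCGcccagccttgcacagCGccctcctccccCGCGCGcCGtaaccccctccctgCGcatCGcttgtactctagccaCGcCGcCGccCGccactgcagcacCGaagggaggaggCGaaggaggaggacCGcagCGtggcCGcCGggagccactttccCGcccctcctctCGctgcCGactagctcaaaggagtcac

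The Sv2c stretch held 26 CG dinucleotides at a GC content of 70.8%, the Sv2a stretch held 13 at 66%, and the Sv2b stretch held 7 at 48.8%. The median GC content over 32851 such stretches of all genes was 52.4%. The letters AAGTT, the core that MYT1 family zinc fingers are known to bind, were found on neither strand in these 3 stretches, and 35.3% of all stretches held them. Of the stretches at the 3 other Sv2b starts, 2 held them. This says only where the letters lie in these windows.

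After filtering and removal of likely doublets 96656 nuclei remained (56550 WT, 40106 Het), with a median of 1923 UMIs and 1184 genes per nucleus. No barcode was shared between libraries, and the deposited total was 15439429 to 40784144 UMIs per library. Nuclei were clustered without the SV2 genes and clusters were named from marker genes; the 51 clusters gave 19 classes, and 30.0% of nuclei stayed unnamed. Myt1l, the mutated gene, stood in excitatory nuclei at 1312 to 1628 CPM in the WT libraries, with a median of 1567 CPM. It stood at 1848, 2013, 1932 and 1683 CPM in Het 1 to Het 4, above every WT library (log2 difference 0.28 ± 0.07 SE, edgeR adjusted p = 0.181). UMIs of the whole gene do not distinguish the mutant allele from the intact one, so this neither checks nor contradicts the genotype labels. D1- and D2-like nuclei, which carry the markers of the striatal projection neurons, made up 0.733 to 12% of nuclei in WT and 8.61 to 17.0% in Het. WT 4 held the fewest of them, with 24 D1-like and 14 D2-like nuclei.

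The classes were named from lists of markers, so the markers describe the naming and are no independent check of it. All 10 upper-layer markers, including Cux2 and Rorb, were raised in the upper-layer ExN-like (excitatory neuron) class. The same held for 10 of 10 deep-layer markers, including Fezf2, Tle4 and Foxp2, and for 8 of 8 markers of L6b or subplate neurons, including Cplx3, Ccn2 and Nxph4. Of the D1 markers 6 of 8 were raised in the D1-like class and of the D2 markers 6 of 7 in the D2-like class. The D1 receptor Drd1 and the D2 receptor Drd2 were among them. In the intermediate progenitor-like class 5 of 7 markers were raised, including Eomes, and Neurog1 and Gadd45g were not. Its larger cluster, led by Sema3c and Unc5d, had a mean log2 marker difference of 1.78 for this class. The upper-layer list, which also holds Unc5d, came second there at 1.00.

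Sv2a was found in all neuronal classes. The WT mean was highest in immature olfactory-type InhN-like (inhibitory neuron) nuclei at 106 ± 27.2 CPM (SD, n = 8), followed by L6b/subplate ExN-like nuclei at 89.3 ± 15.7 CPM and MGE InhN-like nuclei at 87.3 ± 10.2 CPM. Deep-layer ExN-like, D1-like, CGE InhN-like, Cajal-Retzius-like, D2-like and upper-layer ExN-like nuclei lay close together, between 67.4 and 78.8 CPM. Neighbours in this neuronal order did not keep it in all libraries; D1-like nuclei, for example, stood above CGE InhN-like nuclei in 3 of 8 WT libraries. Intermediate progenitor-like nuclei stood at 56.0 ± 23.2 CPM. Glial, dividing and vascular classes were lower. Microglia-like nuclei, with 55 UMIs, stood at 43.0 ± 14.8 CPM and oligodendrocyte lineage-like nuclei at 34.0 ± 11.03 CPM. Astroglia-like nuclei stood at 29.5 ± 10.6 CPM, cycling progenitor-like nuclei at 26.2 ± 6.30 CPM and fibroblast-like nuclei at 20.2 ± 19.6 CPM. Oligodendrocyte lineage-like nuclei stood above astroglia-like nuclei in 8 of 8 WT libraries. The astroglia-like class holds a cluster of 1032 nuclei with a median doublet score of 0.7, at 56.1 ± 29.6 CPM of Sv2a and 60.7 ± 12.1 CPM of Sv2b, whereas its other 2 clusters stood at 22.6 and 22.7 CPM of Sv2a and at 9.59 and 7.88 CPM of Sv2b. Mural-like nuclei at 85.6 ± 67.8 CPM (n = 6) rest on 37 UMIs over all libraries and have no usable place in the order.

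Sv2b was found mainly in the excitatory lineage. Deep-layer and L6b/subplate nuclei together held 28.0% of its UMIs, upper-layer nuclei 2.56%, and 9 excitatory clusters without a layer name 51.1%. Of the named classes, L6b/subplate ExN-like nuclei stood at 301 ± 34.0 CPM, deep-layer ExN-like nuclei at 161 ± 21.1 CPM and Cajal-Retzius-like nuclei at 101 ± 13.6 CPM. L6b/subplate nuclei were above deep-layer nuclei, and these above Cajal-Retzius-like nuclei, in 8 of 8 WT libraries. Upper-layer ExN-like nuclei were near the bottom of the order at 12.4 ± 4.57 CPM, next to fibroblast-like nuclei at 12.4 ± 14.1 CPM and endothelial-like nuclei at 10.9 ± 9.89 CPM. Among the striatal classes Sv2b stood at 64.3 ± 23.2 CPM in D1-like and 23.1 ± 12.3 CPM in D2-like nuclei.

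Sv2c was arranged differently. Among the 17 classes with values in at least 6 WT libraries, D2-like nuclei stood highest at 185 ± 33.6 CPM, D1-like nuclei at 130 ± 23.7 CPM and intermediate progenitor-like nuclei at 89.8 ± 31.95 CPM; D2-like nuclei were above D1-like nuclei, and D1-like above intermediate progenitor-like, in 8 of 8 WT libraries. The small cholinergic-like class, with 143 nuclei, stood at 212 and 307 CPM in the 2 WT libraries that held 10 nuclei or more, above the D2-like nuclei of the same libraries (161 and 226 CPM). A middle group, in which neighbours kept their order in 4 or 5 of 8 libraries, ran from L6b/subplate ExN-like at 55.4 ± 15.3 CPM through cycling progenitor-like at 50.9 ± 10.9, MGE InhN-like at 45.4 ± 12.2 and upper-layer ExN-like at 41.0 ± 12.3 and oligodendrocyte lineage-like at 39.7 ± 12.7 to astroglia-like nuclei at 35.3 ± 4.48 CPM. The 3 astroglia-like clusters differed in Sv2c, at 54.6, 14.2 and 27.7 CPM. Deep-layer ExN-like nuclei stood at 8.33 ± 2.40 CPM, beside Cajal-Retzius-like, fibroblast-like and endothelial-like nuclei at 7.65, 7.47 and 5.92 CPM. D1- and D2-like nuclei held 31.7% of all Sv2c UMIs and 9.91% of all UMIs. The wider set of excitatory-lineage clusters held 82.7% of all Sv2b UMIs and 56.5% of all UMIs.

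**Figure D1:**
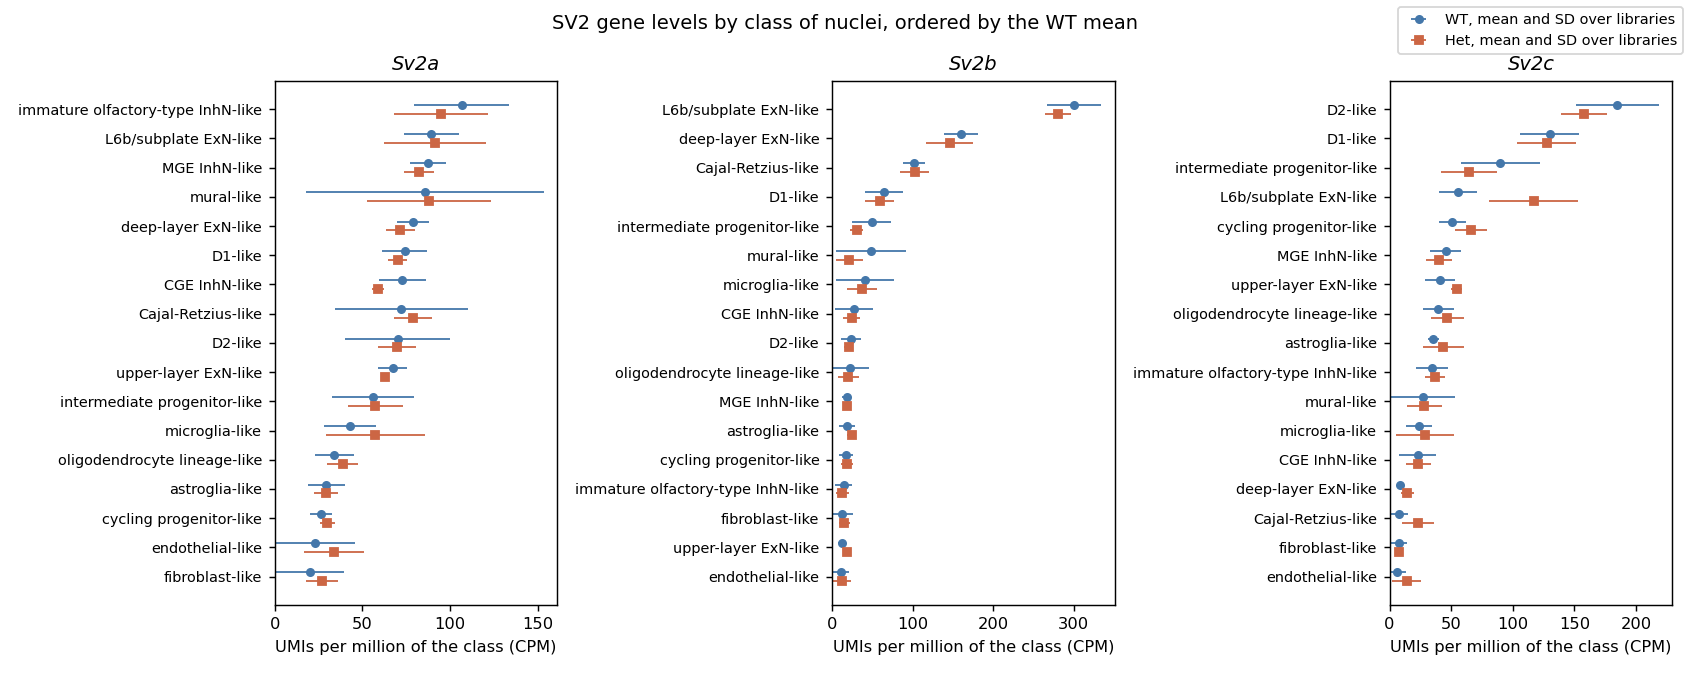
Level of Sv2a, Sv2b and Sv2c (x axis, CPM, UMIs per 1000000 UMIs of the class) in 17 classes of nuclei (y axis, ordered by the WT mean), with the mean and SD over WT libraries (blue circles) and Het libraries (orange squares). Sv2b peaks at 301 CPM in L6b/subplate ExN-like nuclei, and Sv2c at 185 CPM in D2-like nuclei.

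Over the 45 clusters with at least 200 nuclei, the genes most like Sv2a by Pearson's r of log2(CPM + 1) were Grin1 (r = 0.90), the obligatory subunit of NMDA receptors, Stmn3 (r = 0.89), a stathmin that binds tubulin, and Mmp24 (r = 0.89), a membrane metalloproteinase. For Sv2b they were Lingo1 (r = 0.79), a membrane protein of the Nogo receptor complex, Syt7 (r = 0.75), a synaptotagmin, and Coro2a (r = 0.74), a coronin. For Sv2c they were Pde10a (r = 0.63), a phosphodiesterase abundant in striatal projection neurons, Zswim5 (r = 0.62) and Scg5 (r = 0.59), a secretory granule chaperone. The members themselves were less alike, with r = 0.39 for Sv2a and Sv2b, 0.22 for Sv2a and Sv2c and -0.31 for Sv2b and Sv2c. The clusters share libraries and depth, and these values describe 45 points only.

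Within the excitatory lineage Sv2b and Sv2c were highest in different clusters. Sv2b stood highest in an unnamed cluster led by Nr4a2, Oprk1 and Tfap2d at 501 ± 94.6 CPM in WT, then in the L6b/subplate cluster at 301 ± 34.0 and an unnamed cluster led by Il1rapl2, Nr4a3 and Gm36251 at 258 ± 30.6 CPM. The deep-layer cluster led by Hs3st4, Htr1f and Tle4 followed at 172 ± 16.9 CPM, below the previous one in 8 of 8 libraries. The upper-layer clusters led by Inhba, Rorb and Lpl (16.6 ± 7.99 CPM) and by Adamts2, Hs6st2 and Frem2 (5.48 ± 3.42 CPM) were lowest, together with the intermediate progenitor-like cluster led by Sema3c and Unc5d (13.3 ± 13.1 CPM). The same intermediate progenitor-like cluster was highest for Sv2c, at 101 ± 33.4 CPM. It was followed by the L6b/subplate cluster at 55.4 ± 15.3, an unnamed cluster led by Tshz2, Ntf3 and Tspan18 at 44.5 ± 35.7 (n = 6) and the 2 upper-layer clusters at 41.6 ± 12.3 and 41.0 ± 21.5 CPM. The deep-layer clusters lay between 7.79 and 10.96 CPM. The L6b/subplate cluster is thus the one layer cluster near the top for both genes.

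**Figure D2:**
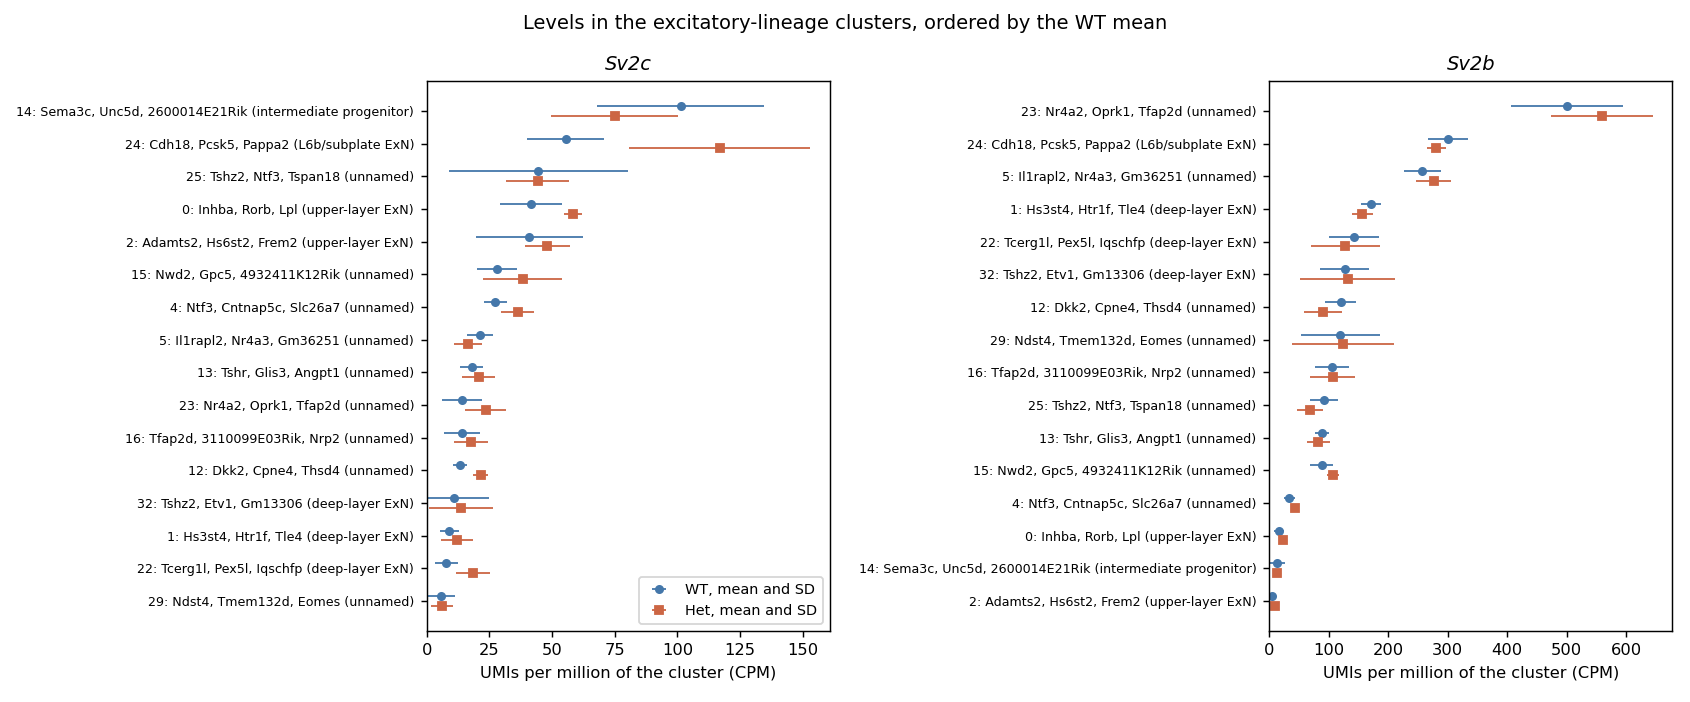
Level of Sv2c (left) and Sv2b (right) in 16 excitatory-lineage clusters of at least 500 nuclei (y axis, cluster number, leading genes and class, ordered by the WT mean; x axis, CPM of the cluster), as mean and SD over WT (blue circles) and Het (orange squares) libraries. The Inhba and Adamts2 clusters are low for Sv2b (16.6 and 5.48 CPM in WT) and in the upper part for Sv2c (41.6 and 41.0 CPM).

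The comparison of the genotypes was made over 23419 nuclei of the 6 layer-named excitatory clusters, summed per library into 837 to 2883 nuclei. For Sv2c, the WT libraries ranged from 19.3 to 30.0 CPM, with a median of 25.9 CPM. Het 1 stood at 53.7, Het 2 at 53.1, Het 3 at 45.8 and Het 4 at 29.8 CPM. Het 1 to Het 3 were above every WT library and Het 4 was just below the highest of them, WT 3. The means were 24.5 ± 3.73 CPM (SD, n = 8) and 45.6 ± 11.1 CPM (n = 4), a ratio of 1.86 and a difference of 21.1 CPM, from 43 to 158 Sv2c UMIs per WT library and 112 to 357 per Het library. Of the 13457 genes tested in these nuclei, 3.12% had Het 1 to Het 3 above every WT library. Without Het 4 the difference was 26.4 CPM. Over the wider set of 50140 nuclei in 17 excitatory-lineage clusters it was 14.7 CPM (23.5 ± 2.28 against 38.2 ± 9.01 CPM), and over all nuclei 14.5 CPM (37.1 ± 5.51 against 51.6 ± 6.02 CPM), where the share of striatal nuclei enters as well.

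Sex moved with these values. The 3 WT females (19.3 to 20.8 CPM) were below all 5 WT males (25.6 to 30.0 CPM), and the only Het female, Het 4, was below the 3 Het males. The Het and WT means differed by 23.9 CPM among males (ratio 1.89) and by 9.49 CPM among females (ratio 1.47, with 1 Het library). A difference between the sexes was not tested.

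Sv2b stood on the other side of WT in the same libraries. WT ranged from 89.3 to 160 CPM, with a median of 104 CPM. Het 1, Het 2 and Het 3 stood at 56.5, 57.0 and 53.1 CPM, below every WT library, and Het 4 stood at 137 CPM, above 7 of the 8 WT libraries. Het 1 to Het 3 were below every WT library for 4.12% of the genes tested. The log2 difference was -0.59 ± 0.28 (SE) and did not pass the test (edgeR quasi-likelihood, adjusted p = 0.395; unadjusted p = 0.056). One library decided this: without Het 4 the log2 difference was -1.02 with adjusted p = 0.00744, within a range of 0.00744 to 0.716 over 24 alternatives. In that setting 757 of 13974 genes (5.42%) were called, so the call was not particular to Sv2b. Among male libraries alone it was -1.004 with adjusted p = 0.0539.

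Sv2a differed little. WT ranged from 68.3 to 85.1 CPM, with a median of 74.5 CPM, and Het 1 to Het 4 stood at 70.2, 60.9, 69.0 and 66.9 CPM. The ranges overlapped, with all 4 Het libraries below the WT median. The log2 difference of -0.19 ± 0.07 (SE) did not pass the test (edgeR adjusted p = 0.302; unadjusted p = 0.018). The test called 0 of the 13457 genes in these nuclei (0%), with 1771 (13.2%) at an unadjusted p under 0.05, and DESeq2 called 32.

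**Figure D3:**
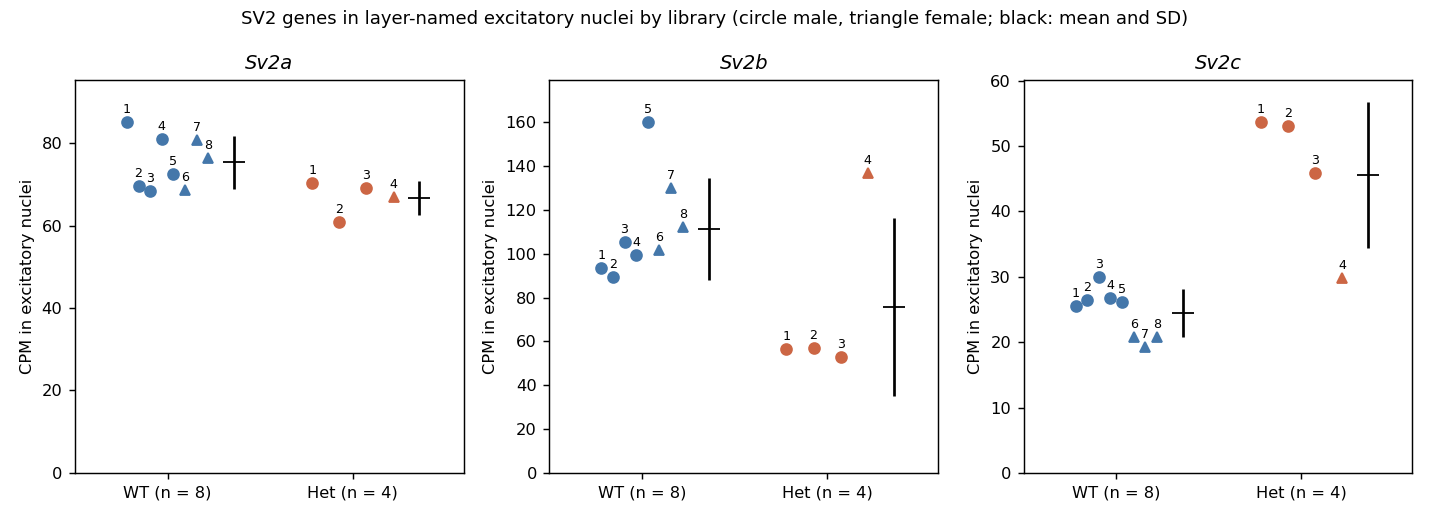
Level of Sv2a, Sv2b and Sv2c in layer-named excitatory nuclei (y axis, CPM) for each of 8 WT and 4 Het libraries (numbered points, circles male and triangles female), with the mean and SD of each group in black. Het 4 stands apart from Het 1 to Het 3 for Sv2b (137 against 53.1 to 57.0 CPM) and for Sv2c (29.8 against 45.8 to 53.7 CPM).

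To find which excitatory subclass carried the Sv2c difference, each cluster's Sv2c UMIs were divided by all UMIs of the excitatory nuclei of that library, so that the clusters add up to the library's level. The upper-layer class gave 11.4 to 20.1 CPM in WT, with a median of 15.9 CPM, and 45.7, 42.4, 37.6 and 13.5 CPM in Het 1 to Het 4. Het 1 to Het 3 lay far above the WT libraries and Het 4 lay among them. The class accounted for 19.1 of the 21.1 CPM between the genotype means (90.2%). This figure includes its larger mean share of the UMIs, 62.7% in Het against 40.8% in WT. The Inhba cluster alone gave 13.9 CPM (65.8%), from 9.55 ± 2.54 CPM in WT to 23.5 ± 9.76 CPM in Het, and the Adamts2 cluster 5.16 CPM (24.4%). L6b/subplate nuclei gave 1.91 CPM (9.05%) and the 3 deep-layer clusters together 0.151 CPM (0.712%). Their mean shares of the UMIs were lower in Het, at 6.28% against 8.23% and at 31.0% against 51.0%. These percentages thus hold for each library's own shares and do not rank the classes by level. Within each class, the Sv2c means differed by 61.4 CPM in L6b/subplate, 13.4 CPM in upper-layer and 5.96 CPM in deep-layer nuclei. The difference at the mean WT mix is given below for all clusters together and was not split by class. Over the wider set of 17 clusters the Inhba and Adamts2 clusters again gave most, with 55.5% and 22.5% of the difference of 14.7 CPM.

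**Figure D4:**
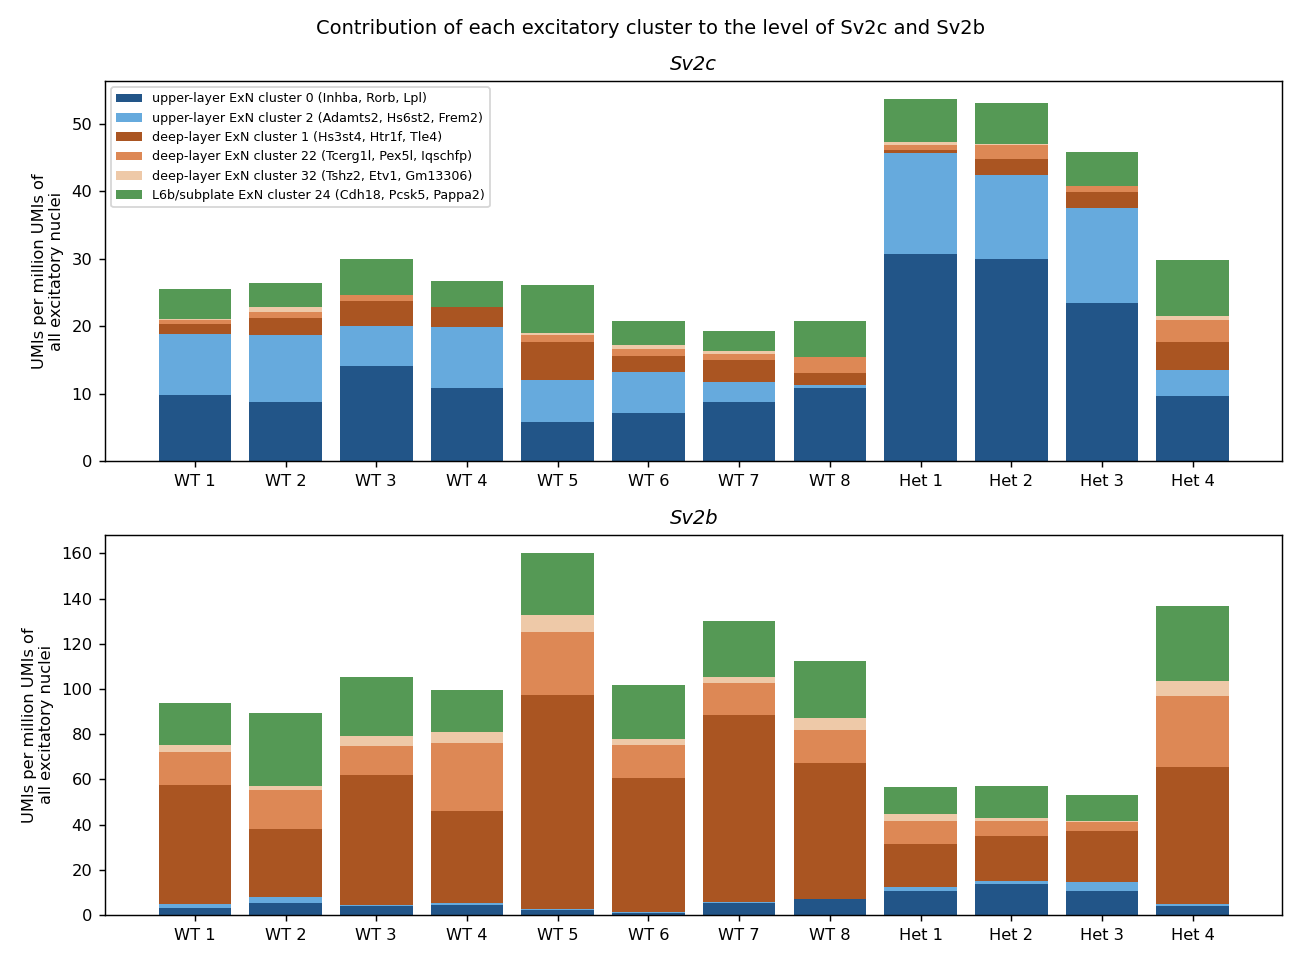
Contribution of 6 excitatory clusters to the level of Sv2c (top) and Sv2b (bottom) in each library (x axis), as UMIs of the gene in the cluster per 1000000 UMIs of all layer-named excitatory nuclei (y axis, bars stacked by cluster). In Het 1 to Het 3 the upper-layer share of Sv2c is 37.6 to 45.7 CPM against 11.4 to 20.1 CPM in WT, and the deep-layer share of Sv2b is 27.0 to 32.3 CPM against 49.3 to 130 CPM.

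A contribution can be large because the cluster holds more of the library or because the gene stands higher within it, and both differed. The upper-layer class held 17.6 to 57.5% of the excitatory UMIs in WT, against 77.8, 74.1 and 71.5% in Het 1 to Het 3 and 27.4% in Het 4. The deep-layer class held 33.3 to 72.7% in WT, against 18.2, 21.1 and 23.97% in Het 1 to Het 3 and 60.7% in Het 4. Counted as nuclei, the upper-layer class made up 21.0 to 63.6% of excitatory nuclei in WT, against 80.1, 77.8 and 74.1% in Het 1 to Het 3 and 33.3% in Het 4. The mean UMIs per upper-layer nucleus overlapped, at 1778 to 2407 in WT and 1854 to 2327 in Het. The shares thus differed in numbers of nuclei as well as in UMIs. Within the upper-layer class, Sv2c stood at 31.2 to 68.5 CPM in WT and at 58.8, 57.3, 52.6 and 49.3 CPM in Het 1 to Het 4, above 7 of the 8 WT libraries. The exception was WT 5, which had the smallest upper-layer share and 68.5 CPM. In the Inhba cluster the WT libraries ranged from 28.6 to 59.9 CPM, and Het 1 to Het 4 stood at 59.6, 61.9, 53.7 and 57.9 CPM. In the Adamts2 cluster the groups overlapped widely, at 3.57 to 79.1 CPM in WT and 35.8 to 57.1 CPM in Het.

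In the L6b/subplate class the ratio of the means was 2.11, in the deep-layer class 1.72 and in the upper-layer class 1.33. WT libraries of the L6b/subplate class ranged from 35.9 to 74.8 CPM and Het 1 to Het 4 stood at 157, 127, 113 and 70.1 CPM. Het 1 to Het 3 were above all WT libraries and Het 4 was below the highest. In deep-layer nuclei Sv2c stood at a low level, 4.75 to 12.8 CPM in WT and 9.11, 21.8, 13.2 and 13.1 CPM in Het 1 to Het 4. Het 2 to Het 4 were above every WT library, Het 3 and Het 4 only just, and Het 1 was within the WT range. Of the 9 unnamed excitatory clusters, 7 had a higher and 2 a lower mean in Het, and the groups overlapped in all but the one led by Dkk2, Cpne4 and Thsd4 (8.15 to 17.6 CPM in WT, 18.4 to 24.2 CPM in Het). The Il1rapl2 cluster, with more Sv2c UMIs than that one, had the lower mean in Het (21.2 ± 5.22 CPM in WT, 16.4 ± 5.56 CPM in Het), and the Tshz2 cluster stood at 44.5 ± 35.7 and 44.3 ± 12.6 CPM. The Sema3c cluster of intermediate progenitor-like nuclei, the highest of the lineage, went the other way, with means of 101 ± 33.4 CPM in WT and 75.1 ± 25.4 CPM in Het and overlapping ranges. For single classes and clusters, the share of all genes with Het libraries outside the WT range was not calculated. The separations named here can therefore not be set against such a share.

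The mix of clusters and the level within them were then separated. With the WT level of each cluster (all WT libraries summed) and each library's own mix, Sv2c came to 18.0 to 30.1 CPM in WT and to 33.6, 32.8, 32.1 and 21.96 CPM in Het 1 to Het 4. The means differed by 5.72 CPM, or 27.1% of the measured difference. Over the wider set of excitatory-lineage clusters, the mix alone gave 5.71 CPM, or 38.8% of the difference measured there. With the mean WT mix and each library's own cluster levels, Sv2c over the 6 clusters came to 20.7 to 38.4 CPM in WT. Het 1 to Het 4 then stood at 40.9, 44.4, 37.3 and 32.4 CPM. The means were 25.9 ± 5.67 and 38.8 ± 5.13 CPM, a difference of 12.9 CPM or 60.9%. Over the 6 clusters the 2 parts leave a remainder and do not add up to the whole. At this fixed mix Het 4 stood above 7 of the 8 WT libraries, and the ratio of the means was 1.46 among males and 1.45 among females. With equal weight for each of the 6 clusters the difference was 17.0 CPM. This figure leans on the L6b/subplate cluster, whose means differed by 61.4 CPM, against 2.78 to 16.7 CPM in the others.

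The same calculation gave another picture for Sv2b. The mix alone came to 87.7 to 152 CPM in WT and to 51.0, 57.3, 61.6 and 138 CPM in Het 1 to Het 4, which is a difference of -36.4 CPM against the measured -35.7 CPM. Over the wider set of excitatory-lineage clusters, the mix alone gave -23.8 CPM against the -26.8 CPM measured there, or 88.8%. At the mean WT mix of the 6 clusters, Sv2b stood at 87.6 to 126 CPM in WT and at 120, 105, 85.9 and 113 CPM in Het 1 to Het 4, with overlapping groups and means of 112 ± 12.6 and 106 ± 14.7 CPM. Within the classes the signs were not shared: the log2 difference was -0.14 ± 0.12 (SE) in deep-layer, -0.09 ± 0.11 in L6b/subplate and 0.63 ± 0.19 in upper-layer ExN-like nuclei, with edgeR adjusted p of 0.851, 0.922 and 0.460, where 0.0101%, 0% and 0% of all genes were called. The unadjusted edgeR p were 0.243, 0.432 and 0.00264 in the same order. The upper-layer values were 4.64 to 19.4 CPM in WT and 16.1 to 20.3 CPM in Het, close to the level in vascular nuclei. For Sv2a the level at the mean WT mix was 74.8 ± 7.79 CPM in WT and 69.8 ± 6.95 CPM in Het, and no layer class passed the test, with adjusted p of 0.810 in deep-layer, 0.865 in upper-layer and 0.999 in L6b/subplate nuclei.

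**Figure D5:**
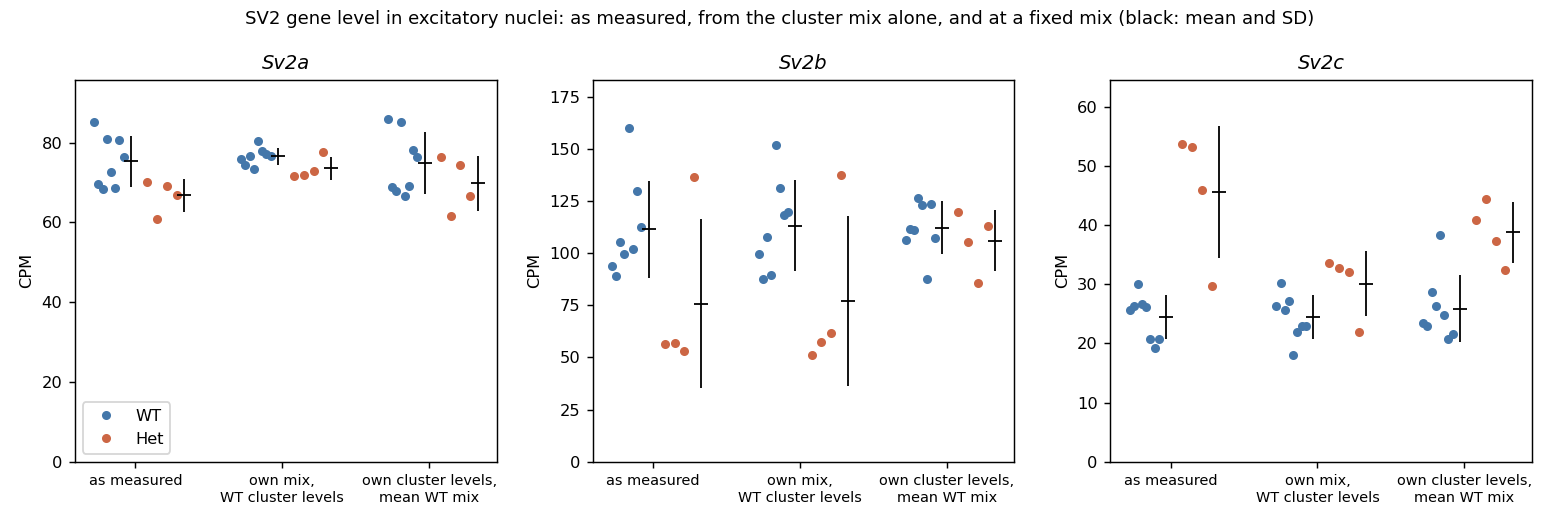
Level of Sv2a, Sv2b and Sv2c (y axis, CPM) in layer-named excitatory nuclei of each WT (blue) and Het (orange) library, as measured, from the library's own mix with WT cluster levels, and from its own cluster levels at the mean WT mix, with mean and SD in black. At the fixed mix the Sv2b means are 112 and 106 CPM, and the Sv2c means are 25.9 and 38.8 CPM.

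Since D1- and D2-like nuclei carry much Sv2c and had a higher mean share of nuclei in Het, striatal markers were read in the excitatory nuclei. Of 24 markers of D1, D2 or both, 16 had a higher mean in Het and 8 did not, and none was at 0 in all libraries, though Chrm4 was at 0 in every WT library. The summed level was 1361 to 1627 CPM in WT and 1508 to 1660 CPM in Het, most of it from genes that cortical neurons also express, such as Foxp1, Pde10a and Bcl11b. The D1 receptor Drd1 stood at 4.53 to 14.5 CPM in WT and 4.06 to 12.5 CPM in Het, and the D2 receptor Drd2 at 0 to 3.25 CPM in WT and 1.28 to 2.26 CPM in Het. Foxp1 moved most, from a mean of 768 CPM in WT to 915 CPM in Het. The part of striatal RNA in the Sv2c difference was not tested.

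In the named classes outside excitatory neurons no difference between the genotypes passed the test. Of 42 pairs of a gene and one of 14 tested classes, 26 passed the filter on low counts, 11 for Sv2a, 7 for Sv2b and 8 for Sv2c. Of these 0 were called by edgeR, with a smallest adjusted p of 0.851, and 2 had an unadjusted p under 0.05. Over all genes of these classes 0.0107% of 84136 pairs were called and 5.01% had an unadjusted p under 0.05. Both of the 2 were Sv2c with lower values in Het. In D2-like nuclei Sv2c was at 143 to 236 CPM in WT and at 183, 138, 154 and 155 CPM in Het 1 to Het 4 (log2 difference -0.27 ± 0.13 SE, adjusted p = 0.912; 0.0588% of genes called in the class). In intermediate progenitor-like nuclei it was at 28.2 to 134 CPM in WT and 36.6 to 91.1 CPM in Het (-0.67 ± 0.27, edgeR adjusted p = 0.851; 0.0225% of genes called). In both classes the groups overlapped. The intermediate progenitor-like class draws on different clusters in different libraries. A small cluster led by Nr3c2, Mndal and Sema3c, with 11 Sv2c UMIs in 376 nuclei, held 5.37% of the wider excitatory UMIs in Het 3 and at most 0.712% in each of the other libraries. Het 3, the lowest Het library of the class at 36.6 CPM, stood at 51.7 CPM in the Sema3c cluster alone. In D1-like nuclei, the class with the most Sv2c UMIs (19.9%), WT stood at 102 to 173 CPM and Het 1 to Het 4 at 158, 113, 104 and 135 CPM (-0.04 ± 0.13, edgeR adjusted p = 0.999; 0.0319% of genes called). Of the other 5 tested classes, MGE InhN-like nuclei also had a lower fitted level (-0.20 ± 0.21), and 4 had a higher one, with 0.37 ± 0.19 in cycling progenitor-like, 0.29 ± 0.20 in astroglia-like, 0.20 ± 0.26 in immature olfactory-type InhN-like and 0.15 ± 0.22 in oligodendrocyte lineage-like nuclei. None of these 5 passed the test (smallest adjusted p = 0.913). Differences between classes were not tested. Clusters without a name were not tested either. The one with the most Sv2c UMIs outside the excitatory lineage (6.85%) was led by Gm29478 and Snhg11 and stood at 27.2 to 87.2 CPM in WT and at 117, 60.8, 85.0 and 76.5 CPM in Het 1 to Het 4. Its groups overlapped, with means of 54.0 ± 17.5 and 84.9 ± 23.8 CPM, and all 4 Het libraries were above the WT mean.

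The SV2 genes were set beside a list of 45 genes of synaptic vesicles and transmitter release. Apart from Sv2c, 42 of the other 44 passed the filter on low counts in excitatory nuclei, and 0 were called by edgeR (0% of all genes). Without Het 4, 7 genes of the list were called, in a fit that called 5.42% of all genes. With all libraries, an unadjusted edgeR p under 0.05 was found for 11 of the 42 (26.2%, against 13.2% of all genes). Of these, 2 had a higher and 9 a lower level in Het. The values pool the layer classes, whose mix differed between the libraries. Apart from the SV2 genes, levels at a fixed mix were not calculated for the list, so mix and level within clusters are not separated here. The median log2 difference was -0.09 over the list and -0.00 over all genes. Among the smallest p-values were those of Syngr1 and Syp, membrane proteins of the vesicle, and of Slc17a6, the vesicular glutamate transporter VGLUT2. Syngr1 stood at 18.1 to 24.9 CPM in WT and at 16.8, 17.4, 17.0 and 15.0 CPM in Het 1 to Het 4 (log2 difference -0.41 ± 0.10 SE, edgeR adjusted p = 0.175). Syp stood at 48.8 to 58.9 CPM in WT and at 48.9, 44.8, 40.4 and 47.7 CPM in Het (-0.28 ± 0.07, adjusted p = 0.175). For Syngr1 every Het library was below every WT library, which held for 0.416% of all genes, and for Syp only Het 1 reached the WT range. Slc17a6 had the opposite sign, at 29.7 to 68.4 CPM in WT and at 93.3, 88.3, 92.8 and 63.6 CPM in Het (0.71 ± 0.20, adjusted p = 0.210), with Het 4 again within the WT range.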

How the data were processed

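Per-library matrices of UMI counts from P1 forebrain nuclei (8 WT, 4 Het) were used. The authors made the deposited estimated counts with ScaleRna on mm10, dividing reads that match several genes, which left 6.58 to 6.88% of entries not whole; nuclei had been called by the authors. Strand handling was not given in the sources used here. Seurat 4.3.0 appears in the submitters' processing notes. Gene coordinates are from GENCODE M21 and matched 54587 of 55335 identifiers.

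Nuclei were kept that had 300 to 3000 genes, 800 to 6000 UMIs, log genes over log UMIs of 0.9 or more and no more than 1% of UMIs from mitochondria (100035 of 126684), and per library the 5% most like simulated doublets were removed. Clustering used 3000 variable genes without the SV2 genes, 50 principal components, 20 neighbours and Leiden at resolution 1.5. Classes were named where at least 3 markers were raised; the naming limits were set with the data in view. Counts were summed per library and class and rounded, then tested with edgeR 4.0.16 (quasi-likelihood, TMM, filterByExpr, Benjamini-Hochberg over all genes of the class; called at adjusted p under 0.05 and a log2 difference of at least 0.2), in which all genes of each class were fitted on WT and Het only. CPM is per 1000000 UMIs of the class; intervals were not drawn, since the spread between animals is given. A library with under 10 nuclei of a class gives no value there.

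The members and all lists were chosen with earlier results of these data known. Named are the SV2 genes, Myt1l, the 3 genes most like each member among those reaching 50 CPM, vesicle genes that were called or, failing that, had the 4 smallest p-values (1 of them is not reported here), and cluster leaders and markers. The pipeline was tested on simulated data. Alternatives were DESeq2 1.42.0, other scaling, filters, covariates, clusterings and doublet treatment, and leaving out each library.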

Additional observations from a re-analysis of the deposited data

Results flagged for a closer look

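Over 54 groups of 4 to 8 libraries, 6 held a library far from the others by Dixon's test, where chance gives about 1 in 20. Het 4 was the highest of the Het libraries for Sv2b in excitatory nuclei, at 137 CPM against 57.0 for the next, and for Sv2b from the cluster mix alone, at 138 against 61.6 CPM. It was the lowest for Sv2c from the mix alone, at 21.96 against 32.1 CPM. Het 4 was the only female Het library, and its litter is not given, so that sex, litter and animal cannot be told apart. WT 5 was the highest WT library for Sv2c in upper-layer ExN-like nuclei, at 68.5 against 44.8 CPM, and for Sv2c at the mean WT mix, at 38.4 against 28.7 CPM. WT 5 also had the smallest upper-layer share of excitatory UMIs, 17.6%. WT 4 was the lowest WT library for Sv2a in D2-like nuclei, at 0.0 CPM against 62.8 for the next. Its 14 D2-like nuclei held 26276 UMIs, and a count of 0 there allows a level of up to 114 CPM (3 counts, counting error only).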

How the results depend on the processing

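Alternatives kept the direction of each of the results for Sv2a, Sv2b and Sv2c in excitatory nuclei. Sv2b was called only without Het replicate 4 (-1.02, edgeR adjusted p = 0.00744, against a range of 0.00744 to 0.716 over 24 alternatives, and of 0.188 to 0.662 for Sv2a); leaving out each library in turn gave -1.02 to -0.45 for Sv2b, -0.21 to -0.15 for Sv2a, 18.4 to 26.4 CPM for Sv2c, 4.56 to 8.44 CPM for its part from the mix and 11 to 15.0 CPM for its part at the mean WT mix. The number of vesicle genes called was 0, but 1 with no filter on low counts and 0 to 7 on leaving out each library, with 7 without Het replicate 4 (Slc17a6 and Syt4 higher in Het; Snap25, Sv2b, Syn2, Syngr1 and Syp lower). No SV2 gene was called in the tested classes outside excitatory neurons under any alternative run there. Over all genes in excitatory nuclei the count of calls was 0, against 32 with DESeq2, 431 with no filter on low counts, 225 in male libraries, 757 without Het replicate 4, 2 without TMM factors, 2 with sex as covariate and 0 with the replicate block. Replicate numbers were not used to pair the samples in the main fit. The correlations of same-numbered libraries ran from 0.0699 to 0.267, and 1 of 4 was under 0.1. Differently numbered libraries were not compared, so these values cannot show whether the numbers pair the samples. With the replicate block the log2 difference was -0.14 for Sv2a (edgeR adjusted p = 0.626) and -0.49 for Sv2b (edgeR adjusted p = 0.658). Sv2c in deep-layer nuclei rests on 222.6 UMIs over 12 libraries, which limits what its level there can show.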
